A study of Ovis aries with 16 samples.

Results

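Airway mucous, secretory and basal cell genes were followed in lung RNA of newborn lambs, with AGR2, TFF3, BPIFA1, SCGB1A1, MUC1, KRT5, KRT14 and KRT15 as the members. The members were chosen partly on their shunt against control values in these same arrays, so their differences between the groups are a description and no test is drawn from them. Of the 8 genes, 7 had a probe set with a single gene symbol, with 9 probe sets in all, out of 9155 such genes and 24016 probe sets on the array. SCGB1A1, the club cell secretory protein, had none and was not analysed here.

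Peripheral lung was taken from sheep (Ovis aries) at 3 days of age, from 8 control lambs whose fetal operation was a sham and 8 shunt lambs. The shunt was a graft of 8 mm and a length of 2 mm, sewn in the fetus from the aorta to the main pulmonary artery 9 ± 6 days before term, and it models a congenital heart defect that raises the flow of blood through the lung. Delivery was spontaneous in both groups. The labels do not describe single lambs, so an array is counted here as a lamb, and p-values measure only the spread between these arrays. The levels are log2 values made with RMA by the authors from a bovine array, so a sequence difference between cattle and sheep, or between lambs, can lower a signal.

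The conducting airways are lined by ciliated cells, by secretory cells that release mucus and defence proteins, and by basal cells, which rest on the basement membrane and renew the others. AGR2 is a protein disulphide isomerase of the endoplasmic reticulum that mucus-producing cells need to fold mucins, and TFF3 is a small trefoil peptide secreted with mucus. BPIFA1 is a secreted defence protein of the upper airways, and MUC1 is a mucin anchored in the apical membrane of many epithelia, alveolar type 2 cells included. KRT5 pairs with KRT14 or KRT15 in the keratin filaments of basal cells. A piece of peripheral lung holds few conducting airways, and in bulk RNA fewer airway cells and less RNA per airway cell cannot be told apart.

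The arrays were alike, except for control lamb 2, whose correlation with the other arrays averaged 0.983, against 0.990 to 0.993 for the remaining lambs. The signal at the 3' end minus that at the 5' end, over 6 control genes, is a measure of RNA quality and ran from 0.61 to 1.26 in control and from 0.81 to 1.20 in shunt lambs. Array medians ran from 7.14 to 7.19 in control and from 7.12 to 7.14 in shunt lambs. In the fit across all probe sets 17 of 24016, or 0.0708%, passed an adjusted p of 0.05 (limma, Benjamini-Hochberg). Among the 9 member probe sets 0 passed in that fit, and 2, those of TFF3 and BPIFA1, were lower at an unadjusted p under 0.05, where 7.32% of all probe sets were. Nothing is read from these counts, because the members were chosen on this contrast.

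AGR2 had the widest spread between shunt lambs of all 9155 genes, and the lambs that were low for AGR2 were also low for TFF3. Among control lambs KRT5 and KRT14, with SDs of 0.52 and 0.35, varied more than TFF3, with 0.32. The level of AGR2 in the control lambs, from replicate 1 to 8, was 9.82, 7.53, 9.58, 9.65, 9.02, 10.26, 8.04 and 7.99. In the shunt lambs it was 10.25, 9.80, 5.92, 6.78, 6.07, 8.84, 9.57 and 5.47. Shunt lambs 3, 4, 5 and 8 lay below the lowest control, while shunt lambs 1, 2 and 7 lay among the higher controls, so the groups overlapped. The shunt values fell into 2 sets of 4 lambs with a gap of 2.06 between 6.78 and 8.84, and no control lamb but 2, 7 and 8 lay inside that gap.

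Control lambs had an AGR2 mean of 8.99 ± 1.01 (SD, n = 8) and shunt lambs one of 7.84 ± 1.97 (SD, n = 8), a difference of -1.15 ± 0.68 (SE, shunt minus control on the log2 scale). Of the shunt lambs, 5 of 8 were below the control mean. The range was 4.78 over the shunt lambs and 2.74 over the control lambs, both on the log2 scale. With array weights estimated over the genes, the difference was -1.84. Weights estimated over all probe sets were 0.232 for control lamb 2 and 1.61 for shunt lamb 3. The SD of AGR2 ranked 11 of 9155 genes among control lambs, where the median gene had an SD of 0.16, and 1 among shunt lambs, where the median gene had 0.13. The lowest AGR2 value, 5.47, was under 5.81, the level below which the dimmest 25% of probe sets lie. Whether such signals were above background is unknown, and no fold is given for them.

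**Figure D1:**
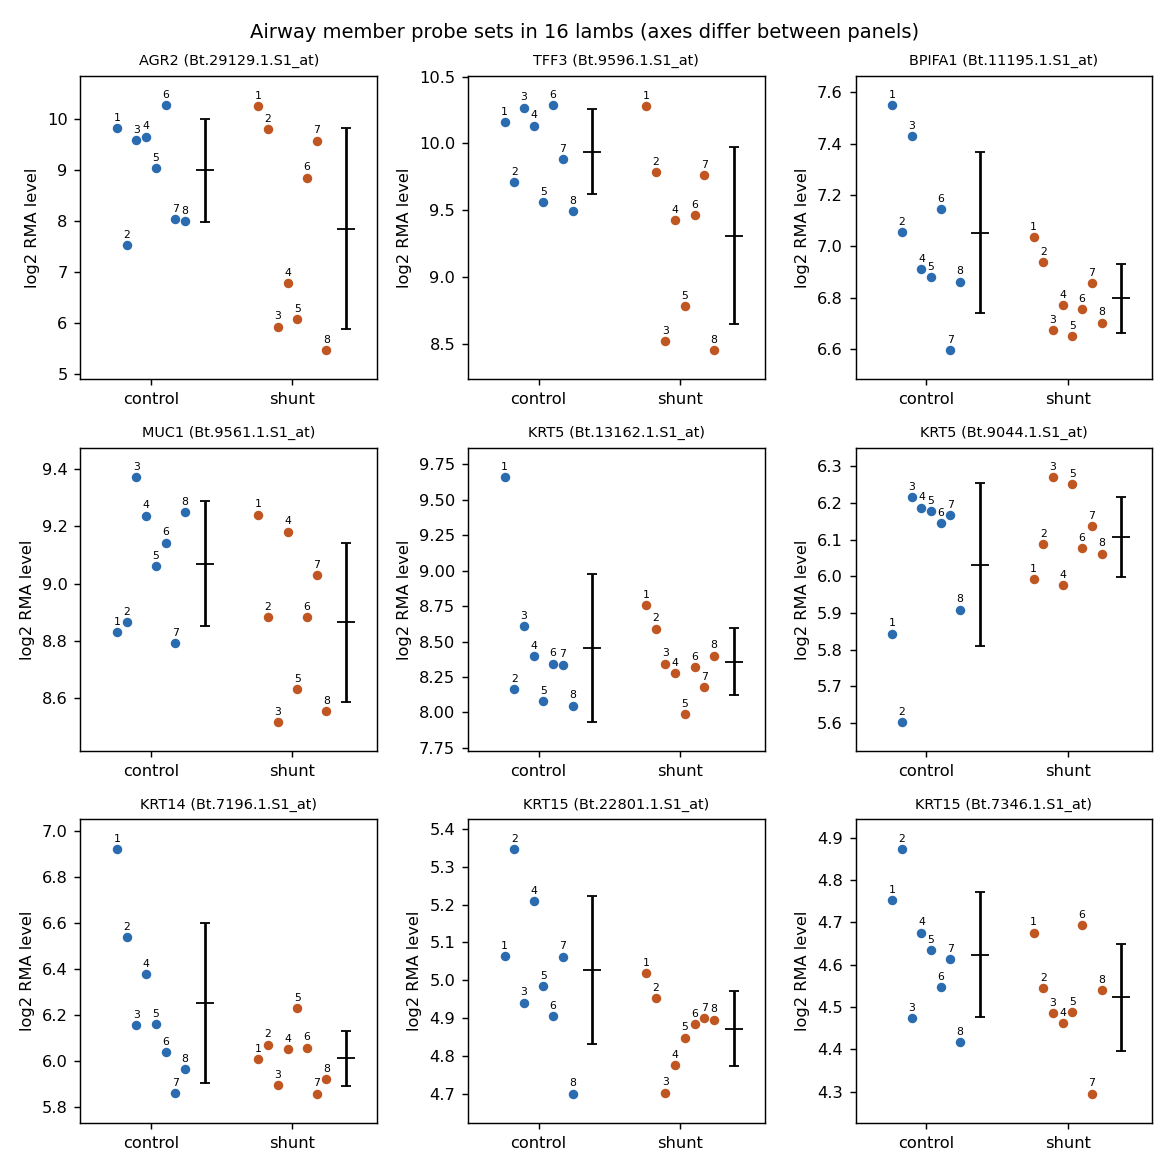
Log2 RMA level of the 9 member probe sets (vertical axes, which differ between panels) in 8 control lambs (blue) and 8 shunt lambs (orange), 1 numbered point per lamb, with the mean and SD of each group as a bar. The 4 lowest AGR2 values, from 5.47 to 6.78, are shunt lambs, and control lamb 1 is far above the rest for KRT5 at 9.66.

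TFF3 followed AGR2. Its level in control lambs 1 to 8 was 10.16, 9.71, 10.27, 10.13, 9.56, 10.29, 9.88 and 9.49. In shunt lambs 1 to 8 it was 10.28, 9.79, 8.52, 9.43, 8.78, 9.46, 9.76 and 8.45. Shunt lambs 3, 4, 5, 6 and 8 were below the lowest control, and shunt lamb 1 was close to the highest, so these groups overlapped too. Control lambs had a mean of 9.94 ± 0.32 (SD, n = 8) and shunt lambs one of 9.31 ± 0.66 (SD, n = 8), a difference of -0.63 ± 0.23 (SE), with 7 of 8 shunt lambs below the control mean. The SD ranked 53 of 9155 genes in shunt and 704 in control lambs.

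The 4 shunt lambs with the lowest AGR2 (8, 3, 5 and 4) were also the 4 with the lowest TFF3, in the same order. Because AGR2 fell into 2 sets there, no correlation with it is given within the shunt group. In the control lambs the correlation of AGR2 with TFF3 was r = 0.78 (exact permutation p = 0.0347, adjusted p = 0.179 over 36 pairs) with rho = 0.81 (exact permutation p = 0.0218, adjusted p = 0.157). Without control lambs 2 and 8, the farthest from the median of AGR2, r was 0.67.

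**Figure D2:**
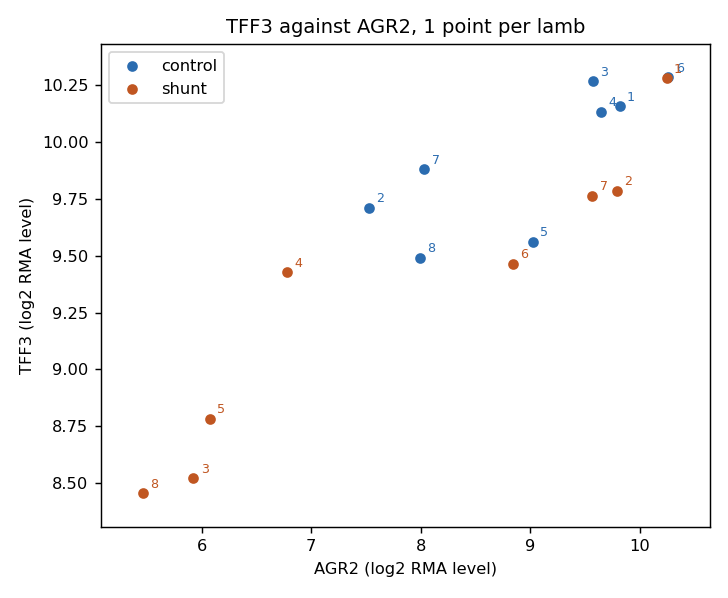
TFF3 against AGR2 (both log2 RMA level), 1 numbered point per lamb, control in blue and shunt in orange. Shunt lambs 8, 3, 5 and 4 are at the lower left, with AGR2 from 5.47 to 6.78, and shunt lamb 1 lies on control lamb 6 at the upper right.

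Among the remaining secretory members, BPIFA1 ran from 6.60 to 7.55 in control lambs (median 6.98) and from 6.65 to 7.04 in shunt lambs (median 6.76). Control lambs 1, 2, 3 and 6 were above every shunt lamb, but control lamb 7 was below all of them. The difference was -0.26 ± 0.11 (SE), and the level was at percentile 45.9 of the probe sets. MUC1 ran from 8.79 to 9.37 in control lambs (median 9.10) and from 8.52 to 9.24 in shunt lambs (median 8.88), a difference of -0.20 ± 0.11 (SE). Shunt lambs 3, 5 and 8, which were the lowest for AGR2 and TFF3, were below the lowest control for MUC1, while shunt lamb 4 was among the higher lambs.

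Of the keratins, KRT5 had the brightest probe set, at percentile 70.9 of the array. It ran from 8.05 to 9.66 in control lambs (median 8.34) and from 7.99 to 8.75 in shunt lambs (median 8.33). Control lamb 1, at 9.66, was well above the next control, at 8.61, and the groups overlapped. The difference was -0.10 ± 0.18 (SE), and it was 0.07 without control lamb 1. A dimmer KRT5 probe set (percentile 29.4) differed by 0.08 ± 0.08 (SE), in the other direction, with control lambs 1 and 2 the lowest of all 16. The KRT5 probe sets therefore ordered control lamb 1 oppositely, highest with the brighter and next to lowest with the dimmer.

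KRT14 and KRT15 were dim. KRT14, at percentile 30.4, ran from 5.86 to 6.92 in control lambs (median 6.16) and from 5.86 to 6.23 in shunt lambs (median 6.03). Control lambs 1, 2 and 4 were above every shunt lamb. The difference was -0.24 ± 0.12 (SE), and -0.15 without control lamb 1. The brighter KRT15 probe set, at percentile 12.5, ran from 4.70 to 5.35 in control and from 4.70 to 5.02 in shunt lambs, with a difference of -0.15 ± 0.08 (SE), or -0.11 without control lamb 2, which was the highest. The dimmer one, at percentile 7.93, differed by -0.10 ± 0.07 (SE). KRT14 and KRT15 are related type I keratins, and the table of sheep genes gives KRT14 as another name of KRT17, so a probe set may read more than 1 of them.

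Each of the 7 member genes had a lower mean in shunt, with a median difference of -0.24, beside a median of -0.01 over all genes, 55.1% of which were lower. With each array centred on its median, 46.4% of all genes were lower and the members' median was -0.22. Both groups overlapped for all 7 members, and 0.153% of all genes had groups that did not overlap. Without control lamb 2 the members' median was -0.23, and each member was still lower. The single exception to that direction, over the alternatives run on the member genes, was KRT5 without control lamb 1.

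The signal was not carried by the same lambs for every member. Control lamb 1 was among the 4 highest of the 16 lambs for 6 of the 7 genes, all but MUC1. Control lamb 3 and shunt lamb 1 were among the 4 highest for 4 genes each. At the other end, shunt lambs 3 and 5 were among the 4 lowest for 6 genes each, and shunt lamb 8 for 5. Shunt lamb 5 was among the 4 highest for KRT14 and shunt lamb 3 was in the middle for KRT5. Shunt lamb 4, with a low AGR2, ranked 5 for MUC1. Shunt lamb 6 was in neither end for any member, and control lamb 7 was among the 4 lowest for BPIFA1, MUC1 and KRT14.

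**Figure D3:**
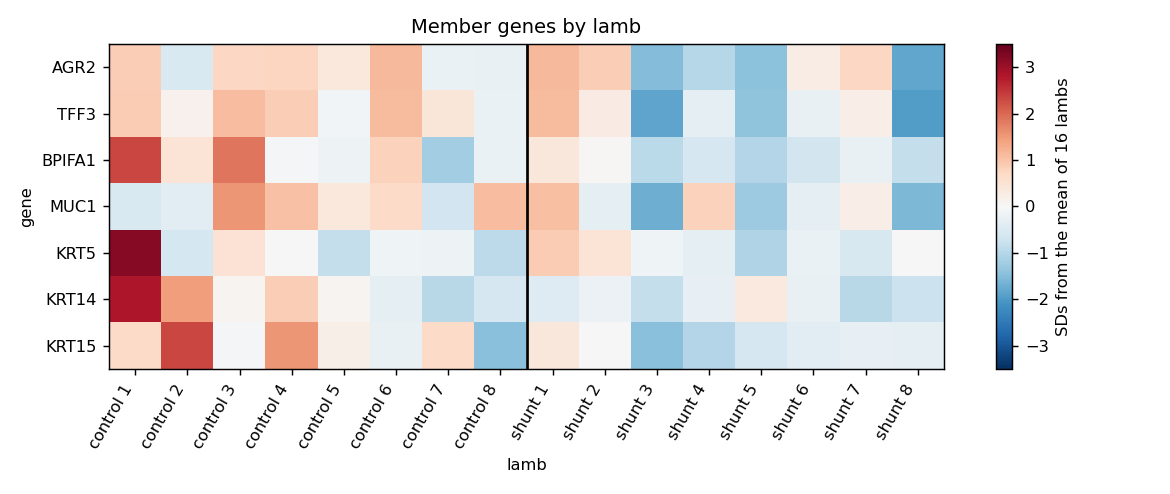
Member genes (rows) in 16 lambs (columns, controls left of the line), coloured by the number of SDs from the gene's mean over all lambs. Shunt lambs 3, 5 and 8 are blue for AGR2, TFF3, BPIFA1 and MUC1, and control lamb 1 is dark red for BPIFA1, KRT5 and KRT14.

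Within a group, TFF3 was compared with the other members from lamb to lamb. In shunt lambs it correlated with BPIFA1 at r = 0.91 (exact permutation p = 0.00154, adjusted p = 0.0554) and rho = 0.88 (exact permutation p = 0.00724, adjusted p = 0.157), and r was 0.96 without shunt lambs 3 and 8. TFF3 with MUC1 gave r = 0.90 there (exact permutation p = 0.00541, adjusted p = 0.0973) and rho = 0.81 (exact permutation p = 0.0218, adjusted p = 0.157), with r = 0.77 without the same lambs. TFF3 with KRT14 gave r = 0.04 in shunt (exact permutation p = 0.929, adjusted p = 0.983) and r = 0.24 in control lambs (exact permutation p = 0.578, adjusted p = 0.833). Their rho was 0.14 in shunt (exact permutation p = 0.752, adjusted p = 0.945) and 0.12 in control lambs (exact permutation p = 0.793, adjusted p = 0.945). In control lambs TFF3 gave r = 0.59 (rho = 0.71) with BPIFA1 and r = 0.18 (rho = 0.10) with MUC1. Without control lambs 5 and 8, the farthest from the median of TFF3, the order turned, with r = 0.54 for BPIFA1 and r = 0.69 for MUC1. The other keratins gave uneven values, and no difference between keratins was tested. KRT5 with TFF3 gave r = 0.57 (rho = 0.83) in control and r = 0.52 (rho = 0.33) in shunt lambs. For KRT15 these were r = 0.14 (rho = -0.02) in control and r = 0.68 (rho = 0.74) in shunt lambs. The keratin values moved without the farthest lambs, 5 and 8 in control and 3 and 8 in shunt. Then r with TFF3 was -0.06 in control and -0.69 in shunt lambs for KRT14. It was 0.37 and 0.87 for KRT5, and -0.79 and 0.75 for KRT15, in the same order.

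BPIFA1 with KRT5 rested on a pair of lambs in each group. In control lambs r was 0.74 (exact permutation p = 0.0197, adjusted p = 0.178) and rho 0.76 (exact permutation p = 0.0368, adjusted p = 0.189), and r was -0.02 without control lambs 1 and 3. In shunt lambs r was 0.77 (exact permutation p = 0.0247, adjusted p = 0.178) and rho 0.55 (exact permutation p = 0.171, adjusted p = 0.385), and r was 0.09 without shunt lambs 1 and 2. Over the 36 pairs, 21 in control and 15 in shunt lambs, 0 passed after adjustment with r or with rho, and 7 had an unadjusted p under 0.05 with r, 2 of them in control and 5 in shunt lambs. The differences between the groups in these correlations were not tested.

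Lists of other airway genes were set against TFF3 from lamb to lamb by their mean, and their single genes differed. The airway secretory and mucous list, without the members, had 17 of 50 genes measured, and SCGB3A1, SCGB3A2, MUC5AC and MUC5B were not among them. The mean deviation of the 17 genes correlated with TFF3 at r = 0.91 in control (exact permutation p = 0.00575, adjusted p = 0.0921) and at r = 0.89 in shunt lambs (exact permutation p = 0.00365, adjusted p = 0.0921). The rank correlations were 0.90 (exact permutation p = 0.00456, adjusted p = 0.0857) and 0.86 (exact permutation p = 0.0107, adjusted p = 0.0857). Without the 2 lambs farthest from the median of TFF3, r was 0.90 in control and 0.87 in shunt lambs. These relations, 32 in all, were chosen after the member values had been seen, and 0 passed after adjustment. Deviations were not scaled in any list, so the genes with the widest spread weighed most in its mean. In the secretory list these were LTF, BPIFB1, PIGR and LPO, with SDs of 0.72, 0.70, 0.63 and 0.60 in shunt lambs. The next, TFF2, had an SD of 0.30, and BPIFB1 was among the 3 genes most like AGR2.

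Single genes of the secretory list went both ways. BPIFB1, a secreted relative of BPIFA1, is described because it was among the 3 genes most like AGR2. In control lambs 1 to 8 its level was 10.51, 9.30, 10.48, 9.50, 9.54, 10.33, 10.10 and 9.18. In shunt lambs 1 to 8 it was 10.29, 10.07, 8.93, 8.73, 8.53, 9.66, 9.92 and 8.72. Shunt lambs 3, 4, 5 and 8 were the lowest and lay under every control. Nothing is read from this, because BPIFB1 was picked for its likeness to AGR2. The difference of BPIFB1 was -0.51 ± 0.28 (SE, adjusted p = 0.3999, limma). CFTR, the chloride channel of airway epithelium, had another order, with 9.83, 9.73 and 9.97 in shunt lambs 3, 4 and 5 against 9.60 in shunt lamb 1. Shunt lamb 8, the lowest for AGR2, was below shunt lamb 1 for CFTR too, at 9.55. This CFTR probe set differed by 0.15 between the groups and another by -0.09. FOXA3, a transcription factor, was 6.24, 6.26, 6.37 and 6.35 in shunt lambs 3, 4, 5 and 8 and, among the shunt lambs, lowest in lamb 1, at 6.16. MUC15, a membrane mucin, was highest among the shunt lambs in lamb 4, at 10.59. PIGR and LPO went more with AGR2. In shunt lambs 3, 4, 5 and 8 PIGR was 7.61, 7.54, 7.04 and 8.02, and LPO was 8.75, 8.54, 8.56 and 8.64. In shunt lambs 1, 2 and 7 PIGR was 8.66, 8.74 and 8.67, and LPO was 9.65, 9.95 and 9.69. Shunt lamb 6 was low for both, at 7.84 and 8.60. CFTR, FOXA3, MUC15, PIGR and LPO were named after their values were seen.

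The mean of the ciliated cell markers, 7 of 34 measured, was compared with TFF3 too, with r = 0.84 in control (exact permutation p = 0.0218, adjusted p = 0.139) and r = 0.73 in shunt lambs (exact permutation p = 0.0277, adjusted p = 0.148). The rank correlations were 0.76 (exact permutation p = 0.0368, adjusted p = 0.235) and 0.69 (exact permutation p = 0.0694, adjusted p = 0.370). CCDC39, a protein that sets the length and the dynein arms of motile cilia, ran from 6.34 to 7.81 in control and from 5.94 to 7.89 in shunt lambs, with shunt lambs 3 and 8 the lowest. In TEKT1, RSPH9 and ROPN1L, shunt lambs 3, 4, 5 and 8 were the lowest of the shunt lambs. TEKT1 was 7.94, 7.82, 7.89 and 7.91 there, against 9.20 in shunt lamb 1 and 8.06 in shunt lamb 2. RSPH9 was 8.25, 8.24, 7.92 and 8.07, against 9.22 and 8.29. ROPN1L, named after its values were seen, was 6.61, 7.13, 7.17 and 7.17, against 9.66 and 7.68. RFX2, a transcription factor of ciliated cells, ran otherwise, with 10.03, 9.92 and 9.61 in shunt lambs 5, 6 and 4. It was 9.23 in shunt lamb 8, and 8.37 and 8.34 in shunt lambs 1 and 3. TPPP3, a tubulin-binding protein named after its values were seen, was 10.80 in shunt lamb 1, and 10.52 and 10.66 in shunt lambs 3 and 5. It was 10.19 in shunt lamb 4 and, among the shunt lambs, lowest in lamb 8, at 9.95. The summed ciliated level, as a mean deviation from each gene's mean, ran from -0.27 to 0.38 in control and from -0.44 to 0.66 in shunt lambs. FOXJ1, the regulator that defines ciliated cells, was not measured.

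Basal cell genes were set against TFF3 in the same way. The list without the members, 20 of 35 measured, gave r = 0.17 in control (exact permutation p = 0.695, adjusted p = 0.767) and r = 0.70 in shunt lambs (exact permutation p = 0.0332, adjusted p = 0.152). The rank correlations were 0.31 (exact permutation p = 0.462, adjusted p = 0.643) and 0.60 (exact permutation p = 0.132, adjusted p = 0.421). Without the 2 farthest lambs r was -0.32 in control and 0.87 in shunt lambs. Markers of alveolar type 2 cells gave r = -0.49 in control and r = 0.61 in shunt lambs (exact permutation adjusted p = 0.511 and 0.357). Endothelial markers gave r = -0.77 in shunt (exact permutation p = 0.0112, adjusted p = 0.1198), with rho = -0.86 (exact permutation p = 0.0107, adjusted p = 0.0857), and r = 0.18 in control lambs (exact permutation p = 0.656, adjusted p = 0.749). The 3' minus 5' difference also went with TFF3 in control lambs, at r = 0.82 (exact permutation p = 0.0192, adjusted p = 0.139) and rho = 0.86 (exact permutation p = 0.0107, adjusted p = 0.0857), and r was 0.04 in shunt lambs (exact permutation p = 0.926). The part of RNA quality in the spread of the controls was not tested.

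**Figure D4:**
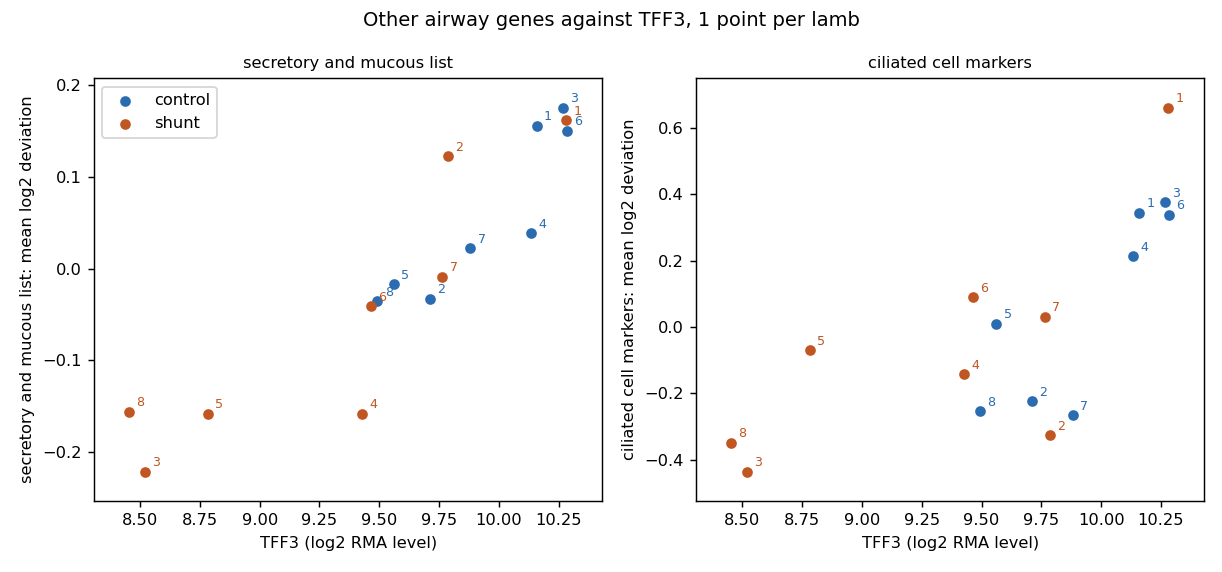
Mean log2 deviation of the secretory and mucous list without the members (left, 17 genes) and of the ciliated cell markers (right, 7 genes) against TFF3 (log2 RMA level), 1 numbered point per lamb, control in blue and shunt in orange. Control lambs 1, 3 and 6 and shunt lamb 1 are at the upper right of both panels, and shunt lambs 3 and 8 at the lower left.

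The genes most like each member were found from the correlation of deviations from the group means over 16 lambs, as a measure of likeness with no test, which for AGR2 pools the 2 sets of shunt lambs. Members were left out of this ranking. SLC44A4, a choline transporter-like protein, came first for both AGR2 (0.91) and TFF3 (0.94). It ran from 8.80 to 9.93 in control and from 7.90 to 10.34 in shunt lambs. MYB, a transcription factor, came next for both (0.87 with AGR2 and 0.90 with TFF3), followed by BPIFB1 for AGR2 (0.86) and CFI, a complement regulator, for TFF3 (0.90). AGR2 and TFF3 had a likeness of 0.91 with each other, which is above that of AGR2 with SLC44A4 before rounding and above that of TFF3 with MYB. BPIFA1 was most like ENO4 (0.87), CFAP206, a protein of cilia and flagella (0.83), and NHLRC2 (0.81).

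For MUC1, SFTPB, a surfactant protein of alveolar type 2 cells, was the most alike gene (0.88), at r = 0.95 within control and r = 0.83 within shunt lambs, given as part of the same description. MME, a membrane metallopeptidase, was next (0.85), and then MIER2 (0.80). The likeness of MUC1 to TFF3 was 0.68 and to KRT5 -0.04. SFTPB was picked as the highest of all genes that are not members, so nothing is read from its place above TFF3. SFTPB itself had a mean of 12.69 ± 0.18 (SD, n = 8) in control lambs and of 12.46 ± 0.18 (SD, n = 8) in shunt lambs, a difference of -0.23 ± 0.09 (SE), and another of its probe sets differed by -0.05.

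**Figure D5:**
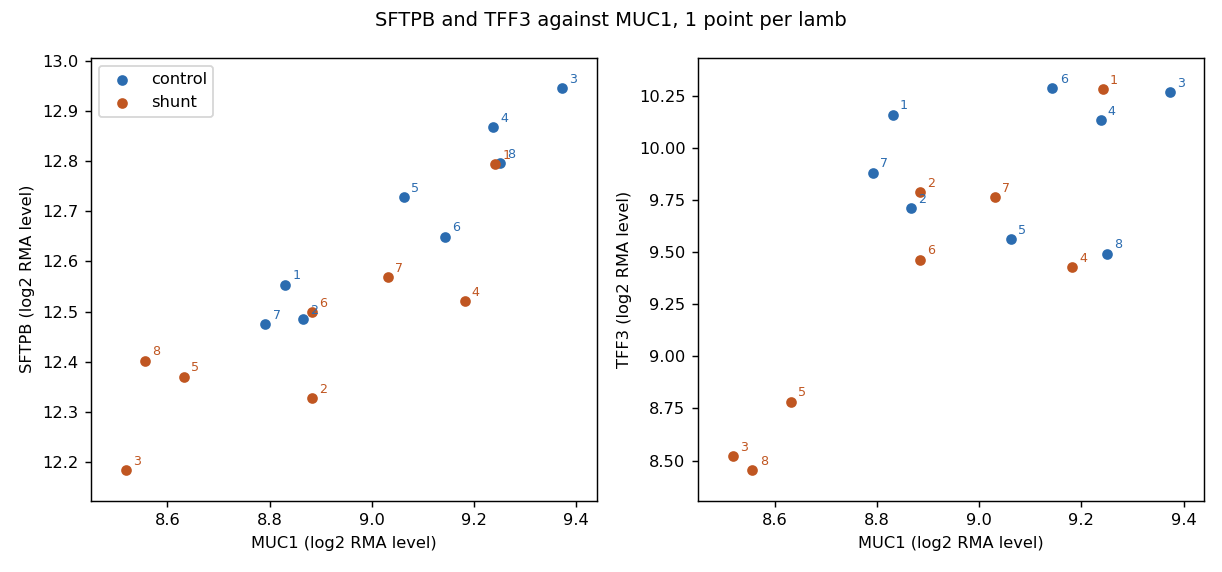
SFTPB (left) and TFF3 (right) against MUC1, all as log2 RMA level, 1 numbered point per lamb, control in blue and shunt in orange. Lambs of both groups lie along 1 band for SFTPB, while control lambs 1 and 7, with low MUC1, have TFF3 of 10.16 and 9.88.

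Among genes that are not members, KRT5 was most like ATP4B (0.78), PPP1R42 (0.77) and CFAP206 (0.76), which was also among the 3 most like BPIFA1, and KRT5 and BPIFA1 had a likeness of 0.75. KRT14 was most like RAMP3 (0.83), NEDD4L (0.82) and GPRC5C (0.75), and KRT15 was most like HARS2 (0.84), SPSB2 (0.83) and PYY2 (0.79). Some of these were uneven within the groups. KRT14 with RAMP3 gave r = 0.97 in control and 0.31 in shunt lambs. KRT15 gave 0.91 and 0.56 with HARS2, and 0.91 and 0.50 with SPSB2, in the same order. KRT5 with ATP4B gave 0.91 and 0.51, while KRT15 with PYY2 was higher in shunt lambs, at 0.77 and 0.91. The likeness of KRT14 was 0.60 to KRT5, 0.56 to BPIFA1, 0.47 to KRT15, 0.11 to TFF3, 0.08 to AGR2 and -0.20 to MUC1. Within control lambs KRT5 with KRT14 gave r = 0.73, but -0.22 without control lambs 1 and 8. Within shunt lambs this pair gave r = -0.24. ATP4B, PPP1R42 and CFAP206 were dim, with group means from 4.24 to 4.75.

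Between the groups, airway and other epithelial genes were mostly lower in shunt, by less than AGR2 and TFF3. By gene, 8 of 9155, or 0.0874%, passed over all genes (limma, adjusted p under 0.05), and 0 of the 134 measured genes on the 14 lists did. At an unadjusted p under 0.05, 7.92% of all genes were lower and 6.63% higher, a split that turned to 4.89% lower and 9.27% higher with each array centred on its median. Among the secretory and mucous genes 12 of 17 were lower (median -0.15), 4 of them at an unadjusted p under 0.05 and 1 with the arrays centred. They were ALDH3A1 and ALDH1A1, aldehyde dehydrogenases (-0.20 ± 0.07 and -0.15 ± 0.06, SE), TFF2, another trefoil peptide (-0.29 ± 0.13), and SPDEF, a transcription factor of goblet cells (-0.19 ± 0.09), with adjusted p from 0.244 to 0.335. ALDH3A1 and SPDEF were dim, at percentiles 23.6 and 24.8 of the probe sets. Control lamb 2 was the highest lamb for both, at 6.12 and 6.35.

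Of the basal and stratified keratinocyte genes 18 of 20 were lower (median -0.14), 7 at an unadjusted p under 0.05. LAMB3, a laminin chain of the epithelial basement membrane, differed by -0.31 ± 0.07 (SE, adjusted p = 0.104) and 8 of 8 shunt lambs had less than the mean control. BCAM, a laminin receptor, differed by -0.34 ± 0.09 (adjusted p = 0.158), KRT17 by -0.19 ± 0.07 and SOX2, a transcription factor of airway epithelium, by -0.43 ± 0.18. Without control lamb 2 the median of this list was -0.09. TP63, which defines basal cells, was not measured, and NGFR, which also marks them, differed by -0.15 ± 0.08 (adjusted p = 0.369).

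Genes of simple epithelium were lower in 18 of 18 cases (median -0.16), with 8 at an unadjusted p under 0.05, and in 17 of 18 with the arrays centred. KRT19 differed by -0.44 ± 0.13 (SE), ELF3, an epithelial ETS factor, by -0.15 ± 0.05, the protease inhibitor SPINT2 by -0.25 ± 0.08 and the adhesion protein CDH1 by -0.19 ± 0.07, with adjusted p from 0.201 to 0.253. Ciliated cell markers were lower in 5 of 7 cases (median -0.27), 1 at an unadjusted p under 0.05, RSPH9, a radial spoke protein, at -0.35 ± 0.15 (adjusted p = 0.294). TEKT1 differed by -0.31 ± 0.18 and RFX2 by 0.39 ± 0.32.

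Relatives of AGR2 in protein folding had a narrow range. Of 7 measured disulphide isomerases 3 were lower and 4 higher, with a median of 0.02 that was -0.001 after quantile normalization again and -0.003 without control lamb 2. TXNDC12 differed by 0.09 ± 0.05 (SE, adjusted p = 0.401) and PDIA4 by -0.06 ± 0.06. Their summed level ran from -0.14 to 0.14 in control and from -0.07 to 0.13 in shunt lambs.

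Markers of other lung cells were described in the same way, and 0 passed over all genes (limma), beside the shares of 7.92% lower and 6.63% higher at an unadjusted p under 0.05. Alveolar type 2 markers were lower in 9 of 9 cases (median -0.15), 3 at an unadjusted p under 0.05, and ran from -0.07 to 0.22 in control and from -0.22 to 0.16 in shunt lambs as a mean deviation. Alveolar type 1 markers were lower in 6 of 7 (median -0.19), 4 at an unadjusted p under 0.05, from -0.16 to 0.31 in control and from -0.19 to 0.07 in shunt lambs. Endothelial markers were higher in 9 of 11 cases (median 0.17), 5 at an unadjusted p under 0.05 and 3 without control lamb 2, from -0.16 to 0.07 in control and from -0.01 to 0.25 in shunt lambs, and smooth muscle markers in 6 of 8 (median 0.17), 4 at an unadjusted p under 0.05. The part of these differences in the members' differences was not tested.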

How the data were processed

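The values deposited by the authors are on the log2 scale. The submitters' processing notes name RMA, which corrects the background, normalizes the arrays and joins each set's probes into 1 value, without a version. Of 24128 probe sets, 112 manufacturer controls were left out. Names came from the platform annotation, with 1 symbol for 13292 probe sets, and a gene was represented by its probe set with the highest mean. Depth does not apply to arrays, and 8 lambs a group limit the precision.

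All probe sets, and all genes, were fitted with limma 3.58.1 in R 4.3.3 (lmFit and eBayes, two-sided, Benjamini-Hochberg). Correlations within a group of 8 used two-sided exact permutations of the pairings, with adjustment over all pairs in both groups. A gene whose values left a gap over 0.4 of its range, with at least 3 lambs on both sides, was given no correlation, a rule set after seeing the values. The fits were tested on simulated data.

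The members and the 14 gene and marker lists were chosen with earlier results of these data known. Up to 4 genes of smallest p per list, and the 3 genes most like each member, were named, with members left out of that ranking. NGFR, CFTR, FOXA3, MUC15, PIGR, LPO, LTF, ROPN1L and TPPP3 were named after their values were seen. Protein and probe sequences were not used here. Alternatives were the replicate number as a block, array weights, another prior, renormalization, a filter on dim probe sets, other probe sets per gene and leaving out each lamb. Permutations ran in Python 3.11.15, and figures came from matplotlib 3.10.9.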

Additional observations from a re-analysis of the deposited data

Results flagged for a closer look

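In 8 of 88 sets of values, 1 of the 8 lambs was isolated, with a large gap to the next lamb relative to the group's range (member probe sets, list means and named genes). Chance gives about 4.4. Control lamb 1 had the highest KRT5 of the controls, 9.66 against 8.61 for the next (ratio of gap to range 0.653). Shunt lamb 1 had the highest mean of the basal and stratified keratinocyte list among shunt lambs, 0.047 against -0.047 (ratio 0.541). Shunt lamb 3, one of the lambs with low AGR2, had the highest endothelial mean of the shunt lambs, 0.25 against 0.10 (ratio 0.569). Control lamb 2 had the lowest macrophage mean, -0.55 against -0.05 (ratio 0.608), and the highest SPDEF, 6.35 against 5.98 (ratio 0.546). Shunt lamb 7 had the lowest SPDEF, 5.41 against 5.63 (ratio 0.526), and the lowest PDIA4, 7.53 against 7.70 (ratio 0.538). Control lamb 7 had the lowest LAMB3 of the controls, 8.32 against 8.56 (ratio 0.564).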

How the results depend on the processing

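Over 167 values of the member genes' differences under the alternatives, 166 were lower in shunt and 0 moved by more than the SD between lambs. Many of these values could not differ: the block, the other prior and the dim filter leave a gene's difference as it was. The limit was also wide, since KRT5 without control lamb 1 went from -0.10 to 0.07 and did not count as moved. The dimmer KRT5 probe set, at 0.08, was not counted on its own. The members' median difference ran from -0.30 to -0.18 with 1 lamb left out and from -0.28 to -0.22 under the other alternatives. Member probe sets called stayed at 0 in all 23 alternatives. Pair correlations called were 0 and became 1 with the arrays centred on their medians and 1 after quantile normalization again. KRT15 had no value without the dim probe sets.

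Counts over the whole array depended on the setting. Probe sets called, 17, became 10 after quantile normalization again, 26 with the arrays centred, 45 with array weights and 55 at an adjusted p under 0.10, and ran from 6 (without control lamb 5 or shunt lamb 3, 5 or 8) to 75 (without shunt lamb 1). Genes called, 8, became 5, 23 and 26 after quantile normalization again, with array weights and at 0.10, and ran from 2 (without control lamb 5 or shunt lamb 3 or 8) to 64 (without shunt lamb 1). With other lambs left out the counts lay between these. The cause was not tested. With the replicate number as a replicate block, 0 probe sets and 0 genes were called (limma), and 1483 probe sets were lower and 1419 higher at an unadjusted p under 0.05. The labels do not say whether lambs of the same number shared anything besides the number. The correlation of their deviations ran from -0.26 to 0.22, and 0 control lambs correlated best with their own number.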

Other observations

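The remaining marker lists were described in the same way. Neutrophil markers were lower in 7 of 7 cases (median -0.17), 3 at an unadjusted p under 0.05, among them the granule enzymes ELANE (-0.24 ± 0.10, SE) and MPO (-0.17 ± 0.07). With the arrays centred 6 of 7 were lower, 2 at an unadjusted p under 0.05, and without control lamb 2 the count at that p was 1. Airway cartilage markers were lower in 8 of 9 (median -0.11), and in 6 of 9 with the arrays centred, with MATN1, a cartilage matrix protein, at -0.17 ± 0.05, where a second probe set gave 0.01. Macrophage markers were lower in 4 of 6 (median -0.04), and without control lamb 2, which had the lowest macrophage mean, in 5 of 6 (median -0.12, 2 of them at an unadjusted p under 0.05), with the scavenger receptor MSR1 at 0.50 ± 0.15, whose other probe sets differed in sign. Neuroendocrine markers were higher in 4 of 6 (median 0.0084), with UCHL1 at 0.35 ± 0.11. Both measured mesothelial markers had lower means, UPK3B at -0.13 ± 0.09 and MSLN at -0.014 ± 0.12. Of these genes 0 passed over all genes (limma).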
